A study of Mus musculus with 7 samples.

Results

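Keratins 7, 8, 18 and 19 and the mesothelial and epicardial genes Upk3b, Msln, Wt1, Tbx18, Tcf21 and Aldh1a2 were followed in mouse hearts labelled as knockouts of Brg1 and Brm, the ATPases of the SWI/SNF chromatin remodelling complex. The genes were selected by name: every non-control probe whose gene name in the scanner output was Krt7, Krt8, Krt18, Krt19, Upk3b, Msln, Wt1, Tbx18, Tcf21 or Aldh1a2 was taken. This gave 12 probes for 10 genes, of 56605 non-control probes on the array. Krt8 and Wt1 each had 2 probes and the other genes 1.

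The epicardium is the mesothelium that covers the heart, a single sheet of flat epithelial cells. Like other mesothelia it builds its intermediate filaments from the keratins of simple epithelia, in which a type II keratin (keratin 7 or 8) pairs with a type I keratin (keratin 18 or 19), and it carries mesothelin (Msln) and uroplakin 3B (Upk3b) on its surface. In the embryo the epicardium expresses the transcription factors Wt1, Tbx18 and Tcf21 and the retinoic acid synthesising enzyme Aldh1a2, and part of it gives rise to fibroblasts and mural cells. These genes are largely quiet in the adult epicardium and are known to be switched on again there after injury. Several are not restricted to the epicardium: Tcf21 is a marker of resident cardiac fibroblasts, Tbx18 of pericytes and smooth muscle, Wt1 is found in some endothelial cells, and Krt8 and Krt18 can be induced in stressed heart muscle.

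RNA came from hearts of adult female mice and was hybridised to 1-colour (Cy3) Agilent arrays, 3 labelled Wild Type and 4 labelled Mutant. Where values are given array by array, the Wild Type order is Wild Type_181, Wild Type_183, Wild Type_189, and the Mutant order is Mutant_175, Mutant_182, Mutant_187, Mutant_188. The Wild Type mice were non-transgenic (NTg) and the Mutant mice transgenic (Tg), and all received tamoxifen. Mutant hearts are labelled Brg1 and Brm knockout: the mice lacked Brm from the start, and Brg1 (gene Smarca4) was deleted in the adult by tamoxifen through MHC Cre-ERT, a Cre recombinase under a myosin heavy chain promoter that acts in cardiomyocytes. By this design the Brg1 deletion was not directed at epicardial cells, while the Brm mutation was carried by every cell of the Mutant mice. No source used here states whether the Wild Type mice carried Brm. The sample numbers differ but no label says that each array is its own animal, and p-values then cover only sample-to-sample spread, which may be technical.

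The cell type is labelled as cardiomyocytes, but the RNA kit named is for whole tissue. Cardiomyocyte markers were bright on every array, and fibroblast, endothelial, macrophage and smooth muscle markers were also well above background. In such bulk RNA, more cells of a type and more RNA per cell cannot be told apart. Smarca4 signal, 32774 to 34706 in Wild Type, was 5871 in Mutant_175, 10259 in Mutant_182, 14948 in Mutant_187 and 8245 in Mutant_188 (difference -1.87 log2, SE 0.29, adjusted p = 0.0021, limma). Smarca2, the gene of Brm, read 1816 to 2041 in Wild Type and 1894 to 2213 in Mutant (0.08, SE 0.11, adjusted p = 0.59, limma). Whether its probe lies in the deleted stretch is not given in the files, so it does not check the label. Values are scaled signals: the processed signal of a probe divided by the 75th percentile of the array's probes and multiplied by 1000. A spot is well above background by the scanner software's own flag, and the lowest scaled signal with that flag was 24.4 to 38.3 per array. Scaled signals are compared within a probe. The summed signal of a gene list, given below for some lists, is led by its brightest probes. Between 58.1% and 63.6% of the spots of an array were well above background, and the small number of arrays limits every value. By the array positions in the file headers all Wild Type arrays lay in row 1 and all Mutant arrays in row 2 of a single slide, so slide row and genotype cannot be told apart.

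The probes are 60-base oligonucleotides copied from the transcript. Below are 3 of them, chosen to show what was measured for a keratin that rose, for a keratin that was not called and for an epicardial factor that rose. Positions are on mouse build mm9. A gene annotation of that build was not used here, so exons are not named.
Krt19, chromosome 11, 100002392 to 100002451, minus strand: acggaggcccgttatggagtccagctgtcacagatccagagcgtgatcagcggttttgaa
Krt7, chromosome 15, 101253718 to 101253777, plus strand: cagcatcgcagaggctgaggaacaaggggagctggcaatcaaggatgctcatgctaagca
Tcf21, chromosome 10, 22537563 to 22537622, minus strand: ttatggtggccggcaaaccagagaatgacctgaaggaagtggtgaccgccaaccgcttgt
All 3 have the same G+C content, 55.0%, and the 12 probes span 35% to 55.0%.

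Krt19, Krt18, Tcf21 and Tbx18 rose in the Mutant hearts, while Krt7, Msln and Wt1 were not called. Aldh1a2 and the Krt8 probe that represents the gene missed the threshold. A gene was tested if a probe of it was well above background on at least 3 of the 7 arrays, which 9 of the 10 genes and 11 of the 12 probes met. Upk3b, well above background on 2 arrays, was not tested. Of the 9 genes, 4 were called higher and 0 lower at an adjusted p under 0.05 (limma over 22971 genes), where 16.3% of all genes tested were called higher, 25.8% lower and 42.1% in either direction. Krt19 and Krt8 passed the filter through Mutant arrays alone, so they could only differ upwards and the count is no support for a direction. The groups did not overlap for 5 of the 9 genes, all higher in Mutant. Of all genes, 19.6% did not overlap with Mutant higher, 31.6% with Mutant lower and 51.2% in either direction. Krt19 and Krt8 are among the 5, so this count is no support for a direction either.

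**Figure D1:**
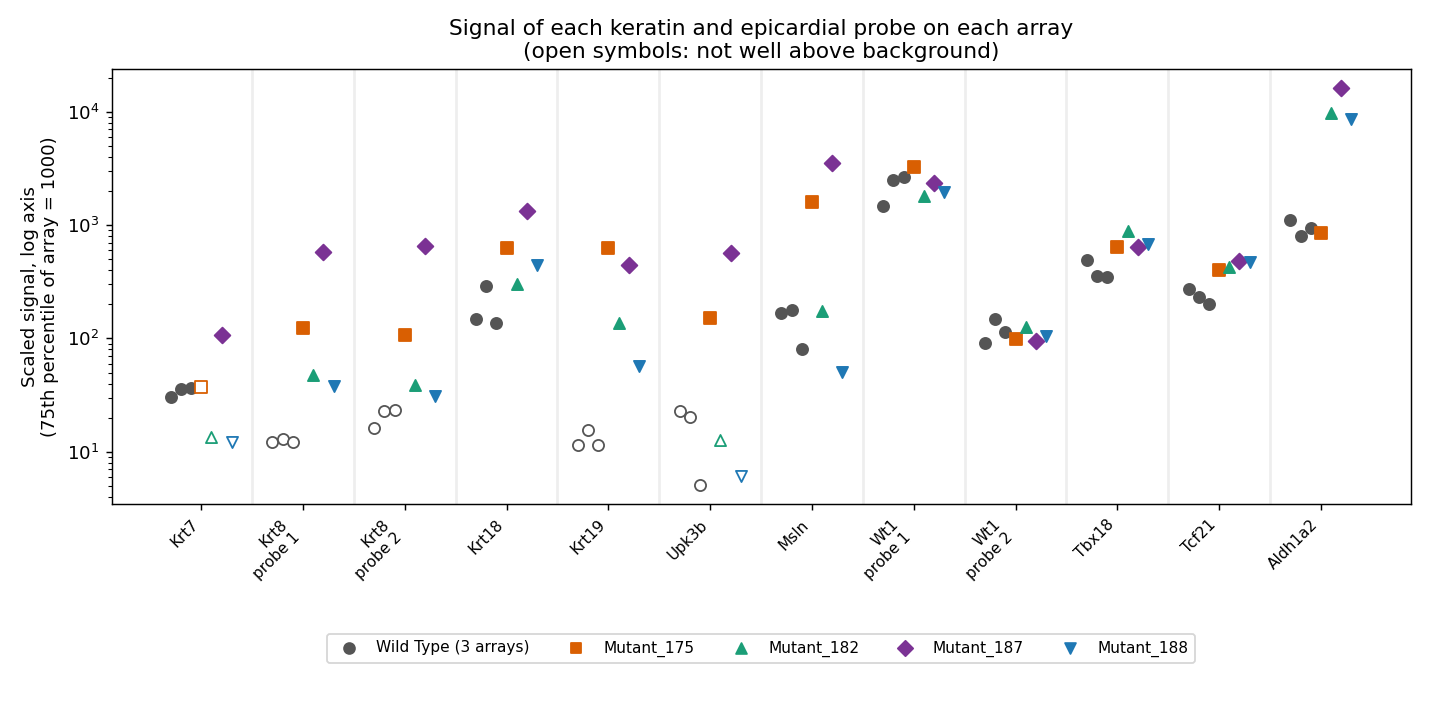
Scaled signal (75th percentile of each array set to 1000, log axis) of the 12 probes on each of the 7 arrays; grey circles are the 3 Wild Type arrays, coloured symbols the 4 Mutant arrays, and open symbols are spots not well above background. Krt19 and both Krt8 probes are open in every Wild Type array and filled in every Mutant array, Msln and Upk3b are high in Mutant_187 and Mutant_175 only, and Aldh1a2 is high in every Mutant array but Mutant_175.

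Krt19 and Krt18, the type I keratins of simple epithelia, rose. Krt19, whose protein is the smallest of the keratins and lacks their usual tail domain, read 11.4, 15.4 and 11.4 in Wild Type. Its Mutant signals were 630, 138, 446 and 57.2. All 3 Wild Type spots failed the background flag and all 4 Mutant spots had it, and the lowest Mutant value lay above the highest Wild Type value. By the mean of its 4 Mutant arrays, Krt19 was at least 8.01-fold higher (adjusted p = 0.0051, limma). The fold is set against each Wild Type array's lowest signal with the background flag, which bounds what that array could measure. Those signals were 24.4 to 29.4, and the Mutant array nearest to them was Mutant_188 at 57.2. Krt19 passed the filter through Mutant arrays alone, so the call is no support for a direction. The Mutant arrays themselves spanned 11-fold, with Mutant_175 and Mutant_187 above Mutant_182 and Mutant_188.

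Krt18, the usual partner of keratin 8, was measured well above background everywhere. Its scaled signal was 148, 292 and 138 in Wild Type against 623, 301, 1333 and 444 in Mutant. The groups were separated only narrowly, since Mutant_182 at 301 stood just above Wild Type_183 at 292. The difference was 1.67 log2 (SE 0.51, adjusted p = 0.033, limma), 3.18-fold. This call depended on single arrays. The adjusted p was 0.056 without Mutant_175, 0.099 without Wild Type_181 and 0.11 without Wild Type_189, with differences of 1.63, 1.52 and 1.47.

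Krt8, the type II partner of keratin 18, was read by 2 probes near each other on the minus strand of chromosome 15. The first probe, at 101827214 to 101827273, gave 12.1, 12.9 and 12.2 in Wild Type against 124, 47.9, 583 and 37.9 in Mutant. The second, at 101827138 to 101827197, gave 16.1, 23.1 and 23.4 against 106.7, 38.5, 659 and 30.8. With both probes every Wild Type spot was not well above background, every Mutant spot was, and the groups did not overlap. By the mean of the Mutant arrays, Krt8 was at least 3.95-fold higher by the first probe and at least 3.53-fold higher by the second. Adjusted over all probes, the first was called (adjusted p = 0.024, limma) and the second was not (adjusted p = 0.11, limma). The second represents the gene because its mean over all arrays is higher. That rests on Wild Type signal not well above background (mean -5.60 against -6.33 log2), since its Mutant mean was lower (-3.39 against -3.22). Mutant_187 was far above the others, and the second probe spanned 21.4-fold over the Mutant arrays. The gene was called higher relative to spike-in RNA (adjusted p = 0.037, limma) and without Mutant_175 and Mutant_187 (adjusted p = 0.038, limma). The fitted sizes are no bound, since no Wild Type spot was well above background, and Mutant_182 and Mutant_188 stood only just above the lowest signals with the flag on their arrays (33.8 and 30.2).

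Krt7, the other type II keratin of simple epithelia, went a different way. It was weak but well above background in Wild Type, at 30.7, 35.6 and 36.8. In the Mutant arrays it read 37.4, 13.6, 108 and 12.1, and only Mutant_187 was well above background. Mutant_182 and Mutant_188 lay below every Wild Type array and Mutant_187 lay above all of them. The mean difference was -0.26 log2 (95% interval -1.93 to 1.40, adjusted p = 0.79, limma), and its sign turned to 0.30 with spike-in scaling, to 0.06 with normexp correction, and to 0.09 and 0.15 when Mutant_182 or Mutant_188 was left out. Without Mutant_175 and Mutant_187 the fit called Krt7 lower (adjusted p = 0.0011, limma), but neither remaining Mutant spot was well above background. The lowest signals with the flag on those arrays, 33.8 and 30.2, lie at the Wild Type level, so the size of a decrease was not measured.

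Other keratins were measured for comparison. Of 51 further keratin genes on the array 18 were tested, and 19 were not well above background on any array. Among the 18, 3 rose, 2 fell and 13 were not called, with a median difference of -0.10 beside -0.12 over all genes. With spike-in scaling 7 were called higher and 0 lower. Over all 22971 genes that scaling called 8538 higher and 1710 lower, where the main scaling called 16.3% higher and 25.8% lower. The counts of the lists below stand beside the same values. The genes that rose were Krt86 (3.34 log2, SE 0.28), Krt85 (1.13) and Krt79 (0.53), and those that fell were Krt10 (-0.84) and Krt31 (-0.54). Krt86, Krt85 and Krt31 are hair keratins with close paralogs, and signal of a paralog cannot be told apart from that of the named gene. The related Krt81 (0.55, adjusted p = 0.051, limma) and Krt83 (-0.04) were not called. Krt86 read 59.6 to 85.0 in Wild Type and 492, 630, 1079 and 852 in the Mutant arrays. Krt5 and Krt14, the pair of basal stratified epithelium, were not called (-0.19 and 0.26, adjusted p = 0.39 and 0.57, limma), nor were Krt6b (-0.94), Krt42 (0.82), Krt222 (-0.45), Krt16 (-0.32), Krt9 (-0.32), Krt80 (0.32), Krt6a (-0.13), Krt2 (-0.11) and Krt17 (-0.09).

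The surface proteins of mesothelium split the Mutant arrays. Msln, the precursor of mesothelin, gave 169, 178 and 80.3 in Wild Type and 1584, 174, 3534 and 50.8 in Mutant. Mutant_175 and Mutant_187 stood far above every Wild Type array, Mutant_182 within their range and Mutant_188 below it. The difference, 1.81 log2, was smaller than the spread between the Mutant arrays (SD 2.82 log2, n = 4) and was not called (95% interval -1.41 to 5.04, adjusted p = 0.33, limma). Without Mutant_175 and Mutant_187 it was -0.52 (adjusted p = 0.53, limma).

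Upk3b, a uroplakin, showed the same division. Its signal was 23.0, 20.1 and 5.12 in Wild Type and 152, 12.8, 569 and 6.09 in the Mutant arrays, and only Mutant_175 and Mutant_187 were well above background. Its groups overlapped, and with the filter lifted it was not called (1.94 log2, adjusted p = 0.38, limma). The highest and lowest Mutant arrays differed 93.5-fold for Upk3b and 69.6-fold for Msln, although part of the Upk3b range lies below background. Over all genes tested the median difference between the highest and lowest Mutant array was 0.58 log2 and the 95th percentile 1.92, beside 6.55 for Upk3b and 6.12 for Msln. How closely Upk3b followed Msln was not measurable, since 5 of the 7 Upk3b spots were not well above background.

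**Figure D2:**
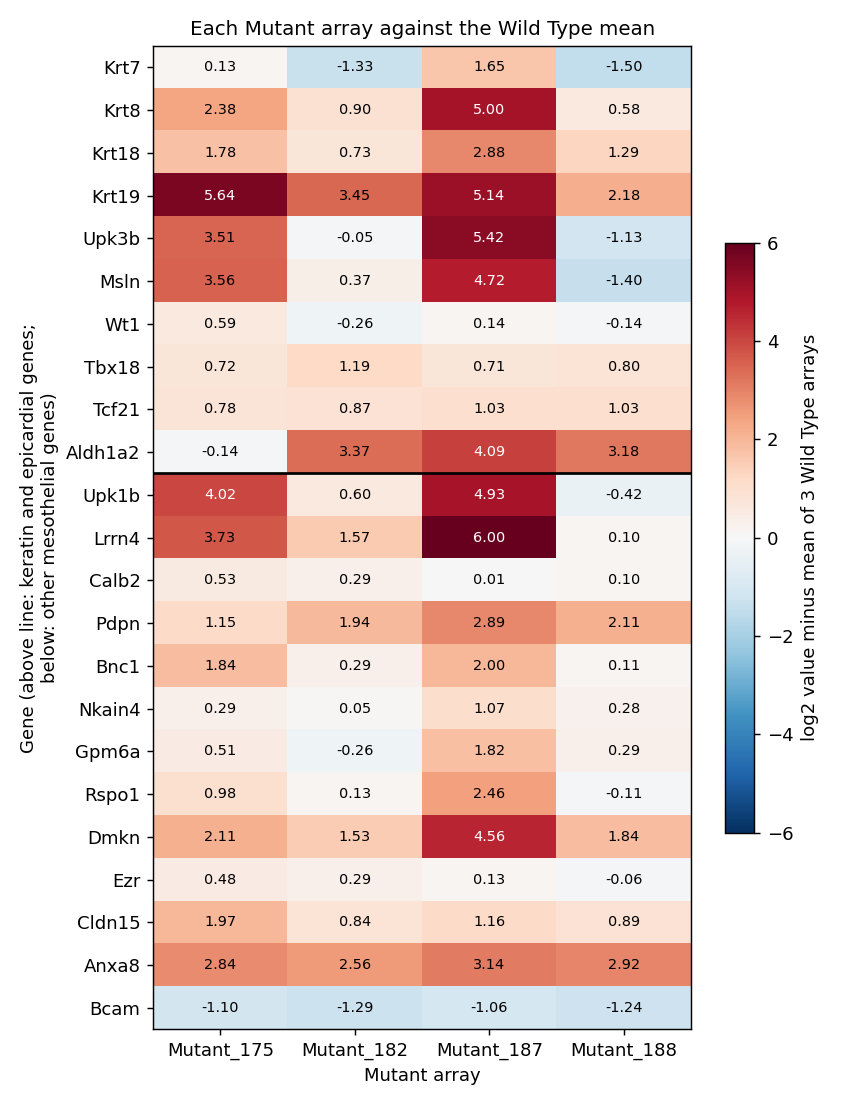
Log2 value of each Mutant array minus the mean of the 3 Wild Type arrays, for the 10 keratin and epicardial genes (above the line) and 13 further mesothelial genes (below it; Cav1 is left out because a Wild Type spot was dropped). Msln, Upk3b, Upk1b and Lrrn4 are at 3.51 or more in Mutant_175 and Mutant_187 and between -1.40 and 1.57 in Mutant_182 and Mutant_188. Values of Krt8, Krt19, Upk3b, Upk1b, Lrrn4, Calb2 and Bnc1 are set against Wild Type spots not well above background. For Dmkn only 1 of the 3 Wild Type spots was well above background.

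The same arrays were high for some other mesothelial genes. Upk1b, the partner of uroplakin 3B, read 15.5 to 29.3 in Wild Type and 352, 32.8, 658 and 16.2 in Mutant. Lrrn4, a membrane protein of mesothelium, read 5.45 to 6.61 in Wild Type and 78.8, 17.7, 379 and 6.38 in the Mutant arrays. Both were well above background on Mutant_175 and Mutant_187 alone, and neither could be tested. These genes were picked out after their values were seen, from a list of 15 further mesothelial genes. Of 14 list genes on the array 10 were tested: Anxa8 (2.87 log2), Dmkn (2.51), Pdpn (2.02) and Cldn15 (1.22) rose, Bcam (-1.17) and Cav1 (-0.55, with a spot of Wild Type_181 dropped) fell, and 4 were not called. With spike-in scaling 6 were called higher and 0 lower, beside 8538 and 1710 of all 22971 genes. Calb2 (calretinin) and Bnc1 were not well above background on any array. Dmkn was well above background on 1 of the 3 Wild Type arrays and read 122, 81.2, 663 and 101 in Mutant. Its difference is thus set largely against background signal. The summed signal of the list was 17954 to 21706 in Wild Type and 25438, 23751, 31803 and 22174 in Mutant. The part of mesothelial RNA in the keratin differences was not tested.

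Anxa8, Pdpn, Cldn15 and Dmkn differ from Msln in that all 4 Mutant arrays lay above every Wild Type array. Cldn15 read 356 to 568 in Wild Type and 1834, 840, 1044 and 869 in Mutant. Anxa8, an annexin, read 214 to 225 in Wild Type and 1565, 1288, 1927 and 1650 in the Mutant arrays. Pdpn, podoplanin, which lymphatic endothelium and activated fibroblasts also carry, read 1273 to 1520 against 3160, 5448, 10547 and 6121. Of the 9 keratin and epicardial genes tested, 6 had Mutant_175 and Mutant_187 both above Mutant_182 and Mutant_188, an order found in 11.7% of all genes tested, and 6 had Mutant_187 as the highest of the 7 arrays, found in 18.0%. The order was noticed in these data and is given as a description. The remaining Smarca4 signal was lowest in Mutant_175 and highest in Mutant_187, and its part in the order was not tested.

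Epithelial genes outside mesothelium were also looked at. Of 15 genes of epithelial junctions and epithelial transcription on the array, 8 were tested. Of these 8, 0 were higher and Grhl2 (-2.73), Ppl (-1.0) and Cldn4 (-0.68) fell. With spike-in scaling 1 was higher and 1 lower. With no filter on dim probes 2 of the list were higher and 2 lower. Grhl2 was well above background on 3 Wild Type arrays but only 1 Mutant array, so the size of its fall was not measured. Epcam and Elf3, general markers of epithelium, were not well above background on any array. The same was true of the lung markers Sftpa1, Sftpb, Sftpc, Sftpd and Nkx2-1. Among the 4 lung and airway markers tested 0 were higher and Cldn18 and Scgb1a1 fell (-0.70 and -0.71), while with spike-in scaling 1 was higher and 0 lower. Scgb1a1 was well above background on only 2 of the 4 Mutant arrays, so the size of its fall was not measured.

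Among the epicardial transcription factors Tcf21 and Tbx18 rose and Wt1 was not called. Tcf21, a basic helix-loop-helix factor needed for the fibroblast lineage, rose by close to the same amount in each Mutant array. It read 273, 233 and 201 in Wild Type and 402, 427, 478 and 476 in Mutant. All Mutant arrays lay above all Wild Type arrays and within 1.19-fold of each other. The difference was 0.93 log2 (SE 0.14, adjusted p = 0.0019, limma), 1.90-fold, and it was called under all 20 alternative settings with adjusted p between 0.00076 and 0.012.

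Tbx18, a T-box repressor, rose by a like amount. It read 487, 352 and 350 in Wild Type and 646, 891, 639 and 683 in the Mutant arrays, which again lay above every Wild Type array. Here Mutant_182 was the highest and Mutant_187 the lowest, the reverse of their order for Msln. The difference was 0.86 log2 (SE 0.18, adjusted p = 0.0076, limma), 1.81-fold, called under all 20 alternative settings with adjusted p between 0.0022 and 0.037.

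Wt1, the zinc finger factor used to mark reactivated epicardium, was not called. Its brighter probe, on chromosome 2 at 105013656 to 105013715, read 1480, 2488 and 2679 in Wild Type and 3238, 1787, 2364 and 1942 in the Mutant arrays. Only Mutant_175 lay outside the Wild Type range, above it. The difference was 0.08 log2, with a 95% interval from -0.56 to 0.73 (adjusted p = 0.83, limma), and its sign varied between settings. The other Wt1 probe, at 104974028 to 104974087, read 90.4, 147 and 113 against 98.4, 127, 95 and 104 (-0.12, 95% interval -0.56 to 0.32). With spike-in scaling Wt1 stood at 0.65 (adjusted p = 0.082, limma).

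**Figure D3:**
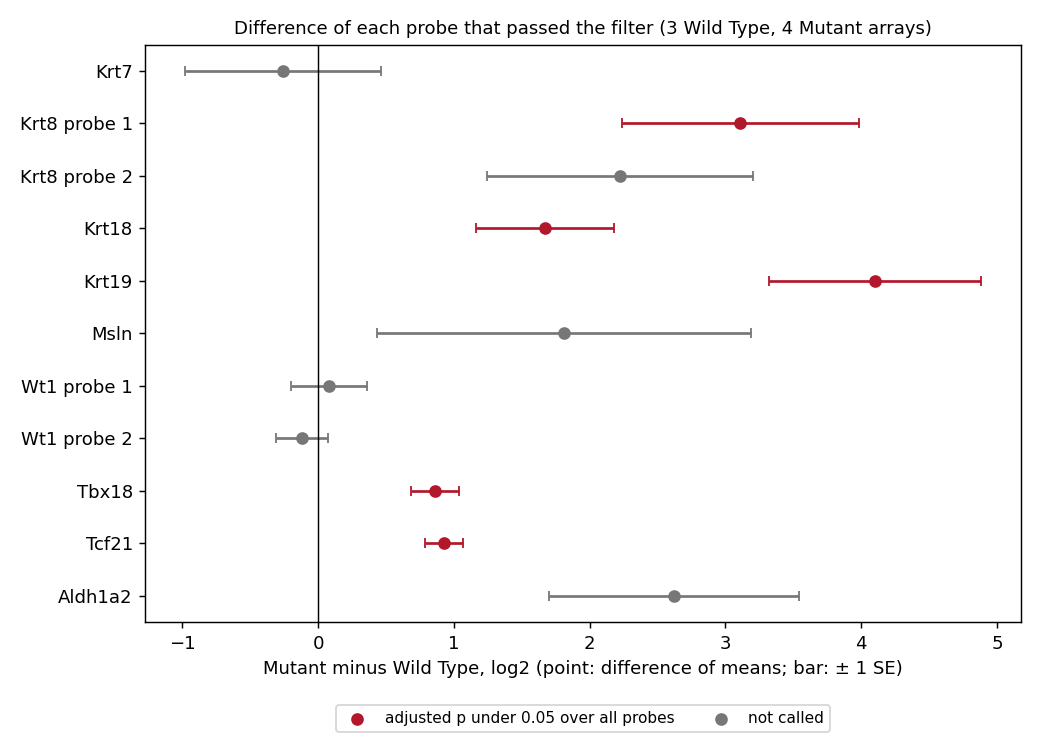
Mutant minus Wild Type difference on the log2 scale with its standard error for the 11 probes that passed the filter (3 Wild Type and 4 Mutant arrays; red: adjusted p under 0.05 over all probes, limma). Tcf21 and Tbx18 show small differences with small errors, Msln, Aldh1a2 and the Krt8 probes large differences with large errors, and both Wt1 probes lie at 0 within their error.

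Aldh1a2 (retinaldehyde dehydrogenase 2) makes retinoic acid from retinal. Its Wild Type signals were 1115, 797 and 941. Mutant_182, Mutant_187 and Mutant_188 read 9717, 16079 and 8553, each over every Wild Type array, while Mutant_175 read 853 and lay within the Wild Type range. The mean difference of 2.62 log2 (SE 0.92, 95% interval 0.49 to 4.76) missed the threshold (adjusted p = 0.054, limma). Without Mutant_175 the difference was 3.55 (adjusted p = 1.8e-04, limma). The call was also made with array weights (3.16, adjusted p = 7.5e-04, limma) and with spike-in scaling (3.19, adjusted p = 0.016, limma), and over the 20 alternatives the adjusted p ran from 1.8e-04 to 0.17. Mutant_175 was thus high for Msln, Upk3b and Krt19 and at the Wild Type level for Aldh1a2, and Mutant_188 the opposite for Msln, Upk3b and Aldh1a2.

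The sequence before the Aldh1a2 start is shown because WT1 is known to act on this gene, together with those of Krt8 and Krt18, neighbours in opposite orientation on chromosome 15 whose starts lie 23.9 kb apart and which were both high in Mutant_187. They are the 250 bases before the start from RefSeq (GRCm38.p6, a different build from the probe positions), and 7 of the 10 genes were in that table. Capitals mark the motifs searched on both strands.
Aldh1a2, chr9:71215539-71215788, plus strand: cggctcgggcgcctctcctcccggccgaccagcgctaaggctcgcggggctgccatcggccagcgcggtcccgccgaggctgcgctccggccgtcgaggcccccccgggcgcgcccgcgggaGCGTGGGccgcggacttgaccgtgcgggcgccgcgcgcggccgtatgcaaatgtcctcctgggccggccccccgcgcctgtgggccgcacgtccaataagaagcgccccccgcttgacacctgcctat
Krt8, chr15:102004343-102004592, minus strand: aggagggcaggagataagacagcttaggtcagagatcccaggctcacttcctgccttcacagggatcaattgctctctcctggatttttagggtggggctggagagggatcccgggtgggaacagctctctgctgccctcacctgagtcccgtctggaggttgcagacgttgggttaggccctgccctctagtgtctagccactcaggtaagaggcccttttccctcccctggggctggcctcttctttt
Krt18, chr15:102027966-102028215, plus strand: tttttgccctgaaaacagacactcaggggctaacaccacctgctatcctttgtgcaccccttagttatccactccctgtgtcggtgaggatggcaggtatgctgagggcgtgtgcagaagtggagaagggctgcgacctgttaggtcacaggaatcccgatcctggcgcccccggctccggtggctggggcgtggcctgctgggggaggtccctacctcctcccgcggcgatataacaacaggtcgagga
Aldh1a2 held the WT1 core GCGTGGG, beginning 128 bases before the start, as did 4.30% of the 32851 promoter windows. The other 6 windows did not hold it, and Krt7 alone held the GC box GGGCGG, 4 times (32.7% of all windows hold it). None of the 7 windows held the TATA box TATAAA, which 12.4% of all windows hold. None held the AP-1 motif TGANTCA, found in 6.75% of all. The T-box half-site AGGTGTGA, in 1.12% of all, and the E-box CAGCTG, in 13% of all, were also not in these windows. The Aldh1a2 window had 40 CpG dinucleotides, Krt18 12 and Krt8 3. A match describes letters in this window and shows no binding.

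Other genes of the retinoic acid pathway moved in both directions. Of 13 tested, 6 rose and 5 fell at the main scaling, with a median of 0.40, and spike-in scaling called 8 higher and 3 lower. The synthesising enzymes Aldh1a3 (2.44) and Aldh1a1 (1.43) rose. Stra6, the membrane receptor for retinol transport, fell by 3.36, Cyp26b1, which degrades retinoic acid, fell by 2.15, and the receptor gene Rarb, itself a retinoic acid target, fell by 1.49. Dhrs3 and Rxra fell by 0.69 and 0.45.

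Genes of epicardial development and of the epithelial-mesenchymal transition that lets epicardial cells leave their sheet were higher more often than lower. Of 17 tested, 6 rose and 1 fell, beside 16.3% and 25.8% of all genes, with a median of 0.59 beside -0.12. Spike-in scaling called 13 higher and 1 lower, beside 8538 and 1710 of all 22971 genes. Of those that rose, Pdgfra is also in the fibroblast list and Pdgfrb in the smooth muscle and pericyte list. Snai1, the transition's repressor of epithelial genes, rose by 3.07 (SE 0.27), Twist1 by 1.51, the growth factor receptor gene Pdgfra by 1.44 and the guidance factor gene Sema3d by 1.19. The growth factor gene Fgf10 fell by 1.73. Snai1 read 85.1 to 128 in Wild Type and 879, 923, 1285 and 590 in the Mutant arrays.

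Markers of other cell types moved with the groups. Fibroblast markers, 7 of 10 higher and 0 lower, had a median of 1.20, and their summed scaled signal was 618546 to 662618 in Wild Type and 934687 to 1099411 in Mutant. Tcf21 rose beside them, and their part in its rise was not tested. Smooth muscle and pericyte markers had 3 of 10 higher and 2 lower, and their sum was 149650 to 167784 in Wild Type and 476243 to 564881 in Mutant, of which Acta2 gave 33393 to 44755 and 380844 to 465315. Spike-in scaling called 5 of them higher and 1 lower. The pericyte genes Cspg4 and Pdgfrb rose by 1.24 and 0.59 while Abcc9 and Kcnj8 fell by 2.05 and 0.83, and their part in the Tbx18 difference was not tested. Of the cardiomyocyte markers 9 of 10 were lower and 0 higher, and 5 lower with spike-in scaling. Their sum was 5286342 to 5728557 in Wild Type and 2193788 to 2870378 in Mutant, lowest in Mutant_187.

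Some of these lists also varied among the Mutant arrays. Macrophage markers, 7 of 10 higher and 0 lower, had a sum of 135805 to 145931 in Wild Type, 144905 in Mutant_175 and 204788 to 244971 in the other Mutant arrays, the same arrays in which Aldh1a2 was high. The median shift of the list from the Wild Type mean was 0.70 in Mutant_175 and 1.02 to 1.39 in the others, and Lgals3 read 7049 in Mutant_175 against 833 to 1293 in Wild Type, while Aldh1a2 stood at -0.14 in Mutant_175. Fibroblast markers were also lowest in Mutant_175, with a sum of 934687 against 1057989 to 1099411 in the other Mutant arrays. Their median shift was 0.91 there and 1.12 to 1.4 in the others. The retinoic acid, smooth muscle and pericyte, and lung and airway lists had their lowest median shift in Mutant_175 too. The part of any of these lists in the Aldh1a2 values was not tested. Adipocyte markers, which fat on the heart's surface would bring, had 0 of 8 higher and 1 lower (1 and 0 with spike-in scaling). Their sum was 157763 to 163732 in Wild Type and 181952, 121019, 118930 and 170139 in the Mutant arrays. The median shifts of the list were -0.14, -0.42, -0.52 and 0.68, an order that differs from that of the sums. The part of surface fat in the Msln values was not tested. Endothelial markers had 1 of 10 higher and 2 lower (2 and 0 with spike-in scaling).

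**Figure D4:**
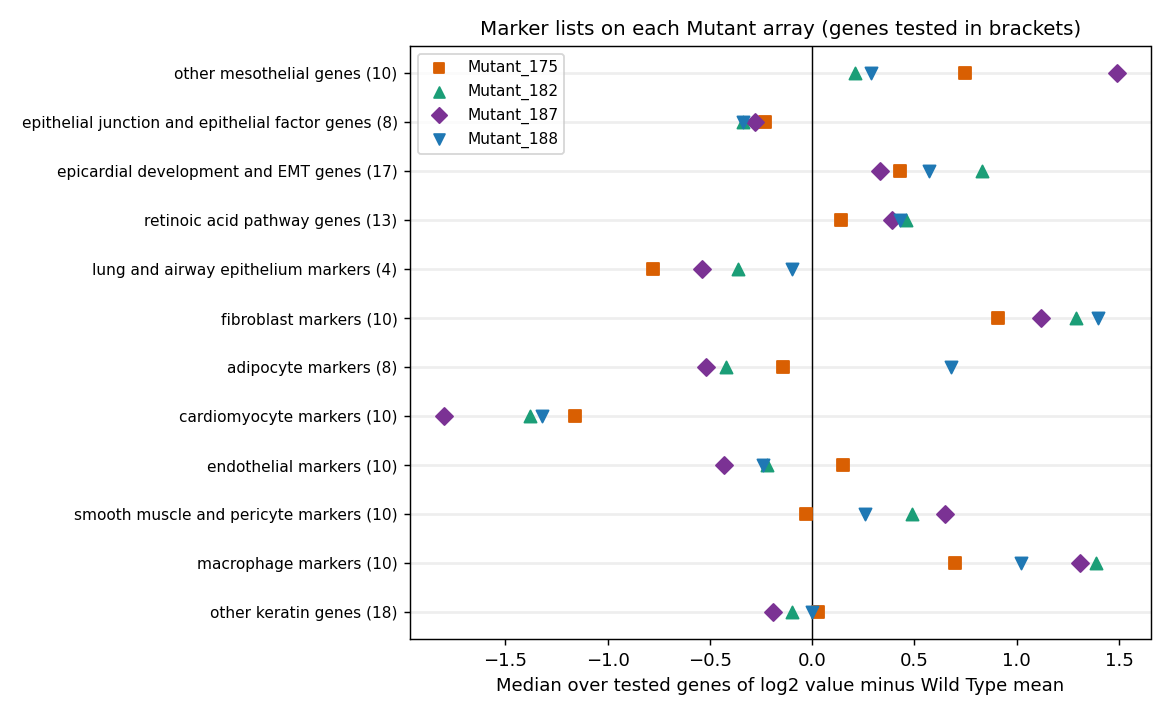
Median over the tested genes of each list of the log2 value minus the Wild Type mean, on each Mutant array (number of genes tested in brackets; symbols are the 4 Mutant arrays). The further mesothelial genes are highest in Mutant_187 (1.49) and Mutant_175 (0.75). Macrophage markers (0.70) and fibroblast markers (0.91) are lowest in Mutant_175. So are retinoic acid pathway genes (0.14), smooth muscle and pericyte markers (-0.03) and lung and airway markers (-0.78).

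Whether 2 of the genes changed by unequal amounts was asked for 5 pairs, on the log2 difference between both on the same array. The test was an exact two-sided permutation of group membership over 35 splits, with 0.029 as its smallest possible p. The Krt18 minus Krt19 difference was -2.43 log2 (exact permutation p = 0.057, adjusted over the 5 pairs 0.29), with values relative to the Wild Type mean of -3.86, -2.72, -2.26 and -0.89 in the Mutant arrays and -0.15, 0.40 and -0.25 in the Wild Type arrays. The groups did not overlap, yet another split of the arrays gave as large a difference. All 3 Wild Type spots of Krt19 lacked the background flag, so the Wild Type side of this pair is background signal and its size is not measured. The Wt1 minus Msln difference was -1.73 (exact permutation p = 0.37, adjusted 0.74), with values of -2.97, -0.63, -4.58 and 1.26 in the Mutant arrays. Krt8 minus Krt18 (0.55), Upk3b minus Msln (0.12) and Tbx18 minus Tcf21 (-0.07) each had an adjusted exact permutation p of 0.74. The first of these rests on Wild Type Krt8 spots, and the second on 5 of 7 Upk3b spots, that were not well above background, so among the 5 pairs only the Wt1 and Msln pair and the Tbx18 and Tcf21 pair were measured on both sides. 

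The genes most alike in pattern were found by the root mean square difference of log2 values over the 7 arrays, each gene centred on its own mean. Nearest to Tcf21 were Zc4h2, Lpar4 and Tipin, at 0.07, 0.08 and 0.08, where the median over all genes was 0.63. Nearest to Krt19 were Mmp3, Arntl and Cenpm, at 0.72, 0.78 and 0.83 (median 2.36). Krt19, Mmp3 and Cenpm were not well above background on any of the 3 Wild Type arrays, so their likeness there is that of background signal. Arntl, well above background on every array, rose by 3.19. Nearest to Msln were Tex11, Pramel13 and Slc39a8, at 1.18, 1.26 and 1.30 (median 2.14). Pramel13 was well above background on 0 and Tex11 on 1 of the 3 Wild Type arrays, and each on 3 Mutant arrays. Part of their likeness to Msln is thus that of background signal. Distances grow with a gene's own spread and are not compared between genes. Upk1b and Lrrn4 were below the filter and could not enter this search.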

How the data were processed

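Per the file headers, the arrays were scanned with Agilent Feature Extraction 10.7.3.1. The deposited gProcessedSignal is a linear intensity with the background already subtracted, 1 array per sample, with no scaling between arrays. The background, saturation and outlier flags come from the same deposited files. The authors' deposited table of values holds the same intensity: 99.6% of its cells lay within 0.01 log2 of the scanner value. It served as an alternative.

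Outlier spots (82 to 146 per array) were dropped, 0 were saturated, spots of a probe were averaged, and log2 values were taken relative to the array's 75th percentile over probes. The filter, a spot well above background on 3 or more arrays, left 34481 probes (60.9%). The probe of a gene with the highest mean over all arrays stood for it. Keratin and epicardial genes kept the file's names; other genes were named through RefSeq accessions of GRCm38.p6 (32994 probes matched). Differences were fitted with lmFit and eBayes in limma 3.58.1 (R 4.3.3), no covariates, and Benjamini-Hochberg adjusted over 22971 genes (30 with a missing value) or over all kept probes. The fit was tested on simulated data.

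The genes, lists and tests were chosen with earlier results of these data known. The rule named all 10 genes, all tested keratins, the 3 list genes with the smallest p (2 where none was called), Smarca4 and Smarca2, and the 3 nearest genes of Krt19, Msln and Tcf21. Any other list gene was named after its values were seen. The values of 1 listed gene are not reported here. All arrays lay on 1 slide with 1 scan. Alternatives were other scalings (quantile, median, percentile of detected probes, 7 spike-in probes), normexp with offset 50, the authors' values, other filters, the mean over probes, another prior, array weights and leaving arrays out.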

Additional observations from a re-analysis of the deposited data

Results flagged for a closer look

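Of 75 values checked (probes, genes and list medians), 4, none in the keratin and epicardial set, had 1 Mutant array far from the other 3, by the gap to its neighbour as a share of the range on the log2 scale. Chance gives this in about 1 of 20 groups, so 4 of 75 is near the chance share. Krt6a had a gap of 0.98 of the range, with 455, 454 and 459 in Mutant_175, Mutant_182 and Mutant_188 and 282 in Mutant_187. Postn (periostin) had 0.91, with 29243 in Mutant_175 and 50106 to 52947 in the others. Abcc9 had 0.86, with 4381 in Mutant_187 and 6208 to 6561 in the others. Rarb had 0.85, with 2607 in Mutant_175 and 1947 to 2034 in the others. None of the 12 keratin and epicardial probes met this rule, Aldh1a2 included.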

How the results depend on the processing

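Krt19, Tbx18 and Tcf21 were called higher under every alternative that gave them a value (19, 20 and 20). For Krt19, which passed the filter through Mutant arrays alone, these calls are no support for a direction. Krt18 kept its direction under all 20. It was called under 13, not counting the fit without Mutant_188, where its adjusted p rounded to 0.050 (limma). It was not called with no filter on dim probes (1.67, adjusted p = 0.058, limma). Spike-in scaling moved the median of all genes from -0.12 to 0.44 and the calls to 8538 higher and 1710 lower. Under it Krt7 turned to 0.30, and Krt8 (2.78) and Aldh1a2 (3.19) were called. Aldh1a2 was also called with array weights (3.16), with the filter over all arrays (2.62, adjusted p = 0.043, limma), with normexp and quantile normalization (2.59, adjusted p = 0.049, limma) and with a trended robust prior (2.62, adjusted p = 0.041, limma). Wt1 turned to -0.18 with array weights and to -0.02 with the mean over its probes. With normexp and quantile normalization Krt7 turned to 0.06, Krt8 minus Krt18 to -0.24 and Tbx18 minus Tcf21 to 0.08. There Krt19 moved from 4.10 to 1.90, and Krt18 minus Krt19 from -2.43 to -0.58. The causes were not tested.

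Leaving out 1 array, Mutant_175 with Mutant_187, or Mutant_187 with Wild Type_181, gave 3 to 5 of the genes called higher and 0 to 1 called lower (Krt7, without Mutant_175 and Mutant_187, on Mutant spots not well above background). The differences ran from -1.41 to 0.15 for Krt7, 0.74 to 2.76 for Krt8, 1.01 to 2.01 for Krt18, -0.52 to 2.88 for Msln, -0.20 to 0.24 for Wt1 and 2.13 to 3.55 for Aldh1a2. Krt7, Krt8 and Krt19 had no value with the filter over all arrays. A slide or scan block could not be fitted. No paired analysis was possible because the Wild Type and Mutant samples share no replicate numbers.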
